A study of Mus musculus with 9 samples.

Results

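Interferon-stimulated genes were described here by the open chromatin at and around them in naive CD4+ T cells. The set held 33 named genes, and a peak belonged to it where the deposited table gave it the symbol of 1 of these genes. In total, 115 of 115727 peaks did, of which 42 lay at a transcription start (promoter peaks; 14608 in the whole table) and 73 lay elsewhere in the gene, in introns, exons or at the transcript end (other genic peaks; 59492 in the whole table). Peaks carried the symbols of 32 of the 33 genes. The exception was Dtx3l, an E3 ubiquitin ligase that works with Parp9. Whether a peak given to another gene covers the Dtx3l start was not tested. Chromatin accessibility was measured by ATAC-seq, a method that cuts open DNA with a loaded transposase and reads the fragments, from 50000 cells a library. The cells came unstimulated from C57BL/6 mice of 3 genotypes with 3 libraries each: WT, Stat6_KO and Il21e_KO, named IL21KO in the sample titles. Stat6_KO cells lack the transcription factor downstream of the interleukin-4 receptor. The allele, its construction, the DNA that Il21e_KO removes and the age of the mice are not given in the sources used here. Nothing there says that the libraries of a genotype came from separate mice, so p-values reflect only how much these libraries vary, which may be technical.

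Type I interferon binds a receptor whose kinases, Jak1 and Tyk2, activate transcription factors. A complex of these with Irf9 binds the interferon-stimulated response element (ISRE), a repeat of GAAA. Interferon-gamma acts through the gamma-activated sequence (GAS), and Stat6 pairs prefer a related palindrome with a wider spacer. The genes so induced encode detectors of viral nucleic acid, enzymes that block viral RNA and protein synthesis, GTPases and protein modifiers, and unstimulated T cells express many of them at a low level.

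The letters that the interferon factors read were present in many of the promoters. In RefSeq promoter windows (assembly GRCm38.p6, 250 bases before to 50 after each start), 24 of the 33 genes were matched, with 30 windows. The ISRE letters GAAA, 2 bases of any kind, then GAAA, searched on both strands, stood in 13 of the 24 genes (54.2%), against 3.99% of the 27025 genes in the table. The GAS letters, TTC and GAA with 3 bases of any kind between them, stood in 9 of the 24 genes (37.5%), against 9.55% of all genes. The Stat6-type spacing, TTC and GAA with 4 bases of any kind between them, stood in 5 of the 24 (20.8%), against 8.01%. These matches describe letters and were not tested as binding sites, and overlapping matches of a motif were counted apart. The 160 bases before the start are shown for 6 members, because they hold the ISRE letters, in capitals, and recur in the results. Isg15 encodes a ubiquitin-like modifier, Ifit1 binds foreign RNA, and Ifit3 belongs to the same family as Ifit1. Gbp3 is a guanylate-binding GTPase, Oas1a makes the messenger that activates RNase L, and Bst2 tethers virus particles to the membrane. Each runs 5′ to 3′ on the gene's strand.
Isg15, chr4:156200819-156200978, reverse strand: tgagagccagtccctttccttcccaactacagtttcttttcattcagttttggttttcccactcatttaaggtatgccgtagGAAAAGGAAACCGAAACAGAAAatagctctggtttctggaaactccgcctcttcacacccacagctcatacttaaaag
Ifit1, chr19:34640729-34640888, forward strand: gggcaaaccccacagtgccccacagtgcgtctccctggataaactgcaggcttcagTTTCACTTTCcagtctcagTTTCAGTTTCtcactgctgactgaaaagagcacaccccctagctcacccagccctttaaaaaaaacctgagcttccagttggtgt
Ifit3, chr19:34583369-34583528, forward strand: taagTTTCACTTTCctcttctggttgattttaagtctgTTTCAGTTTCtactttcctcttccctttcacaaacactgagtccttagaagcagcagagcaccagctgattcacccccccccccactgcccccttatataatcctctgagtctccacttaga
Gbp3, chr3:142559884-142560043, forward strand: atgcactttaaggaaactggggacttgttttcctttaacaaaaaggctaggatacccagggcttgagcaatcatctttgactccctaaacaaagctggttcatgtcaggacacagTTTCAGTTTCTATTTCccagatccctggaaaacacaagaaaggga
Oas1a, chr5:120907526-120907685, reverse strand: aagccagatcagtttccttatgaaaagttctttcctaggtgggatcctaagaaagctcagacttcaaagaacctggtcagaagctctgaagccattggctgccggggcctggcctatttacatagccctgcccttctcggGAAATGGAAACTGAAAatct
Bst2, chr8:71537473-71537632, reverse strand: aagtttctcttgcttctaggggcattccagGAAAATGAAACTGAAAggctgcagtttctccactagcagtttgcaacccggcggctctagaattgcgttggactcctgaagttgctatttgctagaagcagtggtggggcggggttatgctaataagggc

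In Isg15, overlapping matches began 78, 72 and 66 bases before the start and gave 1 run of capitals. The 2 matches of Gbp3, Oas1a and Bst2 also overlapped, whereas those of Ifit1 and Ifit3 stood apart.

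**Figure D1:**
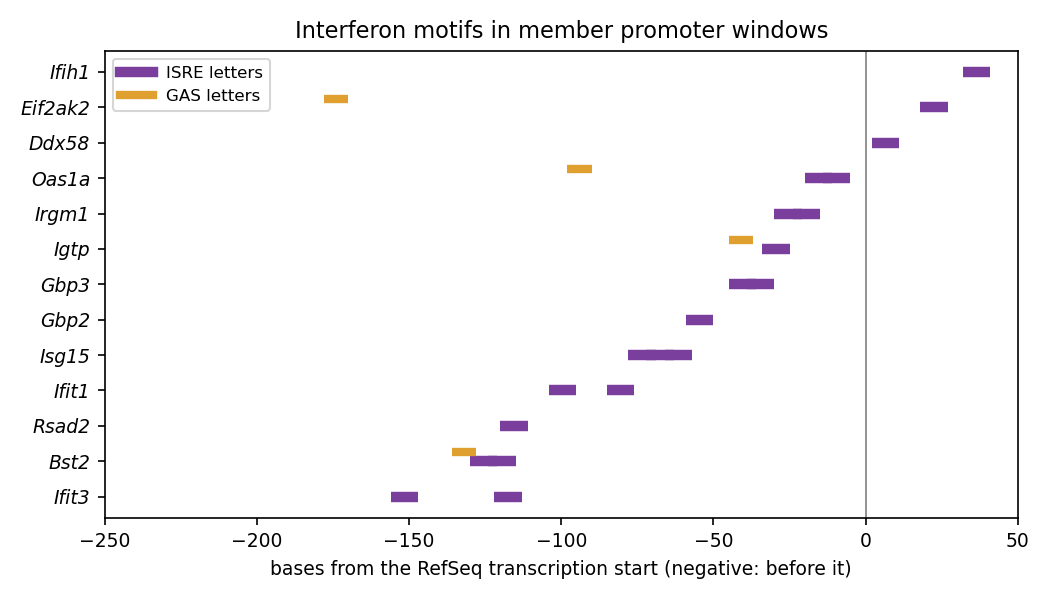
Positions of the ISRE letters (purple) and of the first GAS match (orange) in the RefSeq promoter windows of the 13 members with ISRE letters, on an axis in bases from the transcription start. In 10 of the 13 genes the first ISRE match begins before the start.

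Reads in peaks numbered 1049460 to 1802405 a library, so that 3 reads were worth 1.66 to 2.86 CPM, the unit of the table, in which the reads of a peak are scaled to a fixed total per library. The library Il21e_KO 1 stood apart, with 27200 peaks without a read against 3898 to 12916 in the others, 42.7% of its reads in promoter peaks against 31.6% to 36.4%, and a mean correlation with the others of 0.839 against at least 0.876. Inside Stat6, the peak at coding exon 12 held 5, 3 and 3 reads in Stat6_KO, 11, 9 and 19 in WT, and 5, 15 and 13 in Il21e_KO. This 1 peak, in reads not scaled for depth, is not a full check of the Stat6_KO label. The 6 Il21 peaks held at most 5 reads in any library, so the Il21e_KO label could not be checked there. Summed promoter signal of 9 helper T cell markers was 232 to 271 CPM in WT, 215 to 227 in Stat6_KO and 219 to 295 in Il21e_KO. That of Cd8b1, the only one of 2 CD8 T cell markers with a promoter peak, was 34.8 to 40.5, 30.03 to 35.2 and 30.5 to 38.1 CPM. That of 4 B cell markers was 6.73 to 26.4, 18.3 to 22.2 and 8.58 to 17 CPM. Only 2 of 4 myeloid markers had a promoter peak, with sums of 10.1 to 13.5, 9.17 to 11.8 and 4.76 to 13.3 CPM. For NK cells, 2 of 3 markers had one, with sums of 10.9 to 16.8, 12.8 to 17.6 and 7.62 to 15.8 CPM. The 3 erythroid markers had no promoter peak. In these bulk samples fewer cells of a type and less signal per cell cannot be told apart.

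Most members had an open promoter in unstimulated WT cells. A filter on low reads kept 54 member peaks for testing, 31 promoter peaks and 23 other genic peaks, in 29 genes. All 29 had a tested promoter peak, 14 also had a tested peak elsewhere in the gene, and in the other 15 every tested peak lay at the start. In WT the tested promoter peaks had a median of 29.0 CPM and the tested other peaks 9.21 CPM. Per kilobase of peak the medians were 26.0 and 14.7 CPM per kb, beside 23.0 and 18.3 for all tested promoter and other genic peaks of the table. Of the 29 member promoters, 23 were above the median of all tested promoters. The peaks were called on the same reads that are counted, and peak length affects values per kilobase.

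**Figure D2:**
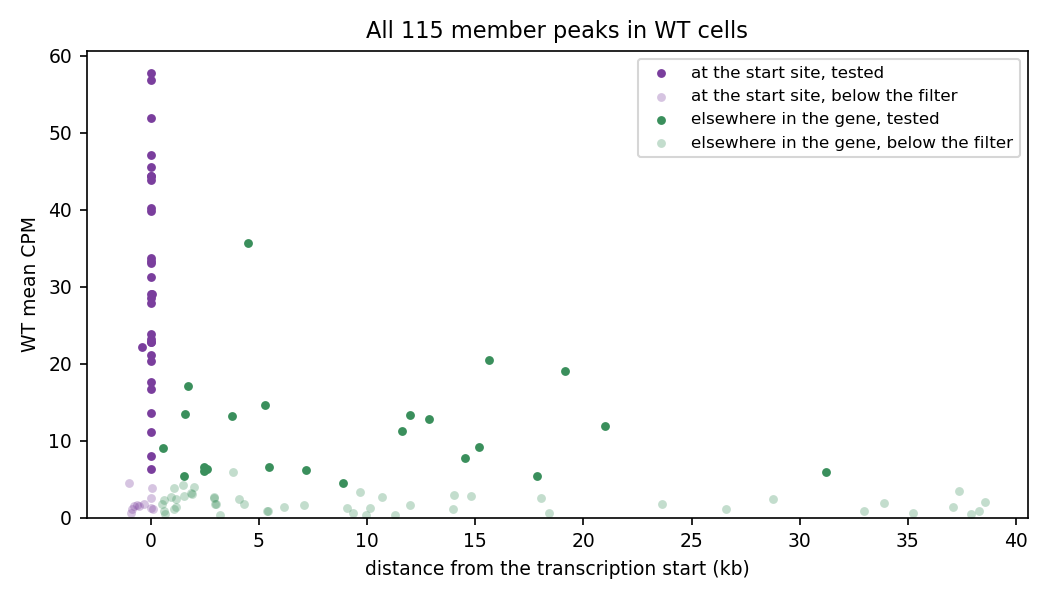
WT mean CPM (y axis) of every member peak against its distance from the transcription start in kb (x axis), with promoter peaks in purple, other genic peaks in green and peaks below the filter faint. Of the 115 peaks, 61 are below the filter, and the tallest stand at the start.

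Adar, which edits adenosine in double-stranded RNA, had the highest WT promoter level, 33.0, 39.1 and 31.0 CPM per kb in the 3 libraries. Next were Isg20, an exonuclease that degrades RNA, at 31.9 ± 2.32 CPM per kb (SD, n = 3), and Ifih1, which encodes the RNA detector Mda5, at 31.5 ± 6.57. At the other end stood Isg15 at 18.4 ± 3.84, the double-stranded RNA-dependent kinase gene Eif2ak2 at 17.8 ± 2.31 and Oas1a at 9.31 ± 3.87. Oas1a held 5.63, 8.95 and 13.3 CPM per kb in the WT libraries, all below the lowest Eif2ak2 value of 16. This was the only gap in the order: in the other 27 of 28 neighbouring pairs the WT libraries overlapped, so most of the order is not resolved. Adar exceeded Oas1a 3.69-fold in WT. Oas1a was also lowest in both knockouts, at 9.44 ± 2.01 in Stat6_KO and 10.6 ± 2.87 in Il21e_KO. Oas1a has close copies next to it, and how reads matching several copies were treated is not given in the sources used here, so its level is uncertain. The same holds for the Ifit, Gbp and Irgm families.

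**Figure D3:**
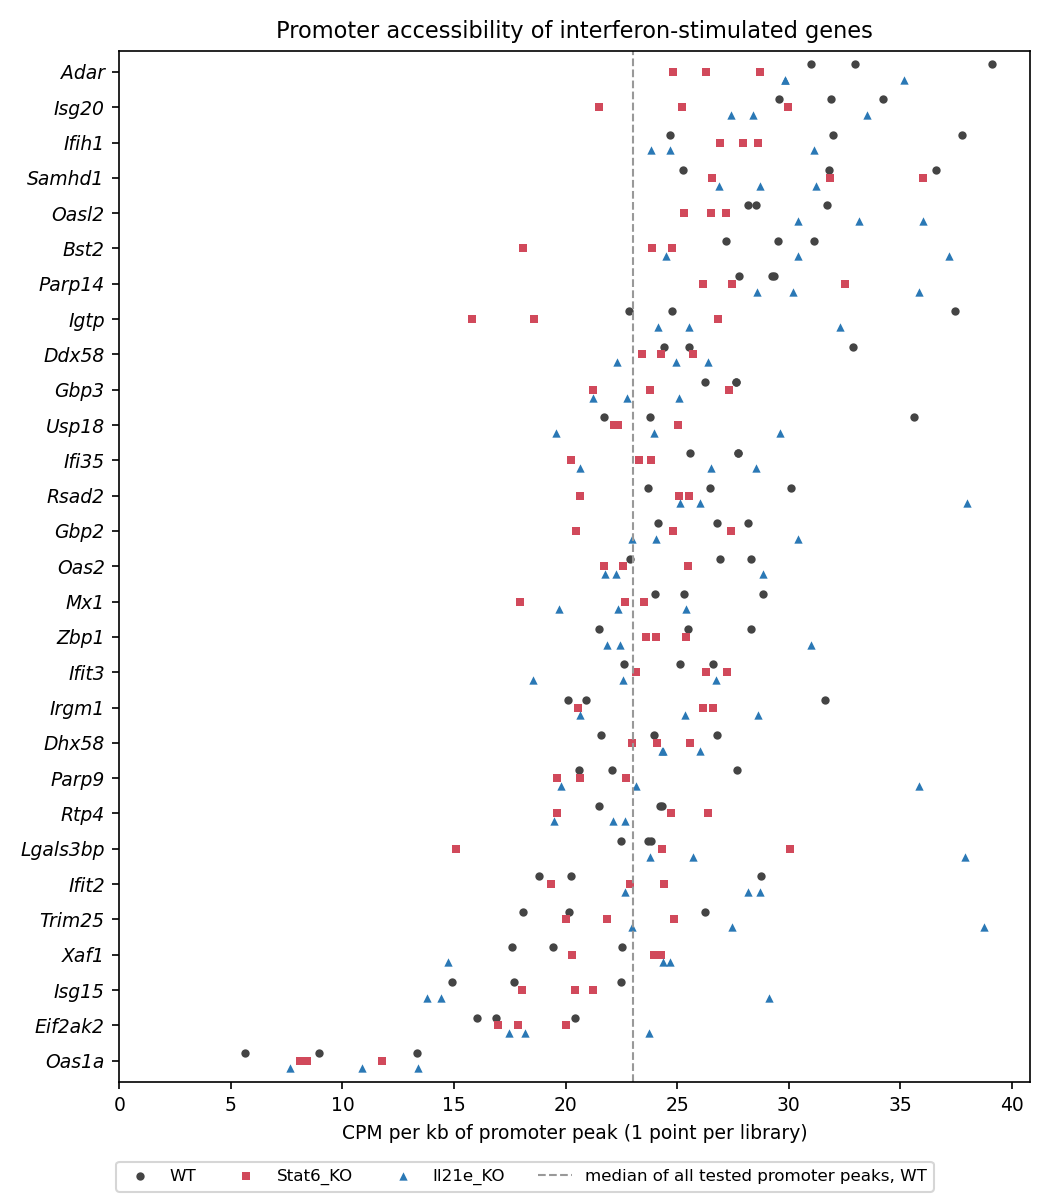
CPM per kb of promoter peak (x axis) for the 29 members with a tested promoter, 1 point per library, ordered by WT mean, with the WT median of all tested promoter peaks (23.0) dashed. Adar is highest and Oas1a lowest, and for most members the points of the 3 genotypes overlap.

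Promoters with and without ISRE letters had similar medians. The 12 tested promoters with ISRE letters had a WT median of 26.6 CPM per kb and a range of 9.31 to 31.5. The 9 tested promoters without them had a median of 27.0 and a range of 19.9 to 34.4.

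In 2 members a peak inside the gene held more CPM than the promoter peak. In Ifit3, a peak at the transcript end (chr19:34662509-34663866, mm9) held 39.2, 35.8 and 32.2 CPM in WT, all above the 19.0, 17.9 and 16.1 CPM of its promoter peak. The transcript end peak is longer, and per kilobase the values overlapped, at 26.3 ± 2.55 against 24.8 ± 2.02 CPM per kb. In Igtp, a GTPase that attacks the vacuoles of intracellular parasites, a peak at coding exon 2 held 11.6, 13.2 and 15.5 CPM against 9.79, 14.8 and 9.03 at the start, which overlap. Per kilobase the Igtp order was reversed, at 18.2 ± 2.62 against 28.4 ± 7.93. Per kilobase, the coding exon 2 peak of Ifit2 also exceeded its promoter in the mean, 25.4 ± 2.46 against 22.6 ± 5.39, with overlapping libraries.

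At Ifit1, Ifi44 and Ly6a no peak assigned to the start passed the filter, with at most 8, 5 and 8 reads in any library. For Ifit1 this rests on naming: its start lies in a peak (chr19:34714900-34715713, mm9) that the table gives to the neighbouring copy Ifit1bl2, singled out after its values were seen. That peak held 16.5, 21.0 and 15.5 CPM in WT, 14.2, 16.5 and 15.3 in Stat6_KO and 28.6, 15.1 and 15.5 in Il21e_KO, and passed no comparison. Ly6a encodes Sca-1, a surface protein that T cells raise under interferon. Its nearest strong peak, also chosen after its values were seen, lay in intergenic DNA 8.22 kb from the start and held 56.1 ± 11.1 CPM in WT, 44.7 ± 2.72 in Stat6_KO and 53.9 ± 6.14 in Il21e_KO. Of 77 intergenic peaks within 100 kb that lay nearest to a member's start, 34 were tested and 0 passed any comparison at an adjusted p under 0.05 (limma-trend).

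No member peak differed between genotypes past the threshold. With limma-trend on log2(CPM + 1) and Benjamini-Hochberg adjustment over all 48287 tested peaks, 0 of the 54 member peaks passed an adjusted p under 0.05 in any of the 3 comparisons. The same test called 0.0104% of all tested peaks in Stat6_KO against WT, 0% in Il21e_KO against WT and 0.0104% in Stat6_KO against Il21e_KO. At an unadjusted p under 0.05, 2 member peaks passed in each comparison, or 3.7% of 54, beside 3.29%, 3.52% and 5.68% of all tested peaks. With edgeR, 1, 0 and 2 member peaks reached that level, and with DESeq2 0 in each comparison. The shares of all tested peaks above are from limma-trend, and none was taken for edgeR or DESeq2. Both tools called 0 member peaks after adjustment. With limma-trend, 5 of the 54 had an unadjusted p under 0.05 in Stat6_KO against WT when these groups were fitted alone. Without Il21e_KO 1 the number was also 5. The lowest adjusted p of a member was then 0.439 and 0.360 (limma-trend). Over all tested peaks, 38 and 61 passed after adjustment in these fits, against 5 in the fit of all 9 libraries. The share of all tested peaks at an unadjusted p under 0.05 was not taken for these 2 fits. Whether 5 of 54 differs from that share is therefore not known. The F test over the 3 genotypes called 0 member peaks, and 0 had an unadjusted p under 0.05, beside 3.42% of all tested peaks. In the filtered fit of all 9 libraries, the lowest adjusted p of a member was 1, 0.9998 and 0.780 (limma-trend) in the 3 comparisons.

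The 95% intervals were narrower at promoters than at other peaks. For all 31 tested promoter peaks, the 95% interval of the log2 fold change lay within 1 of 0, a doubling or halving, in each comparison. The outermost promoter bounds were -0.98 and 0.80 for Stat6_KO against WT, -0.69 and 0.87 for Il21e_KO against WT, and -0.95 and 0.81 for Stat6_KO against Il21e_KO. For the 23 other peaks, which hold fewer reads, the interval lay within that range for 17, 19 and 18 peaks. The median standard error was 0.19 for promoter peaks and 0.26 for other peaks, on the log2 scale. Fold changes here are on the log2(CPM + 1) scale, which understates changes of low peaks. These intervals are for single peaks and not adjusted for their number.

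**Figure D4:**
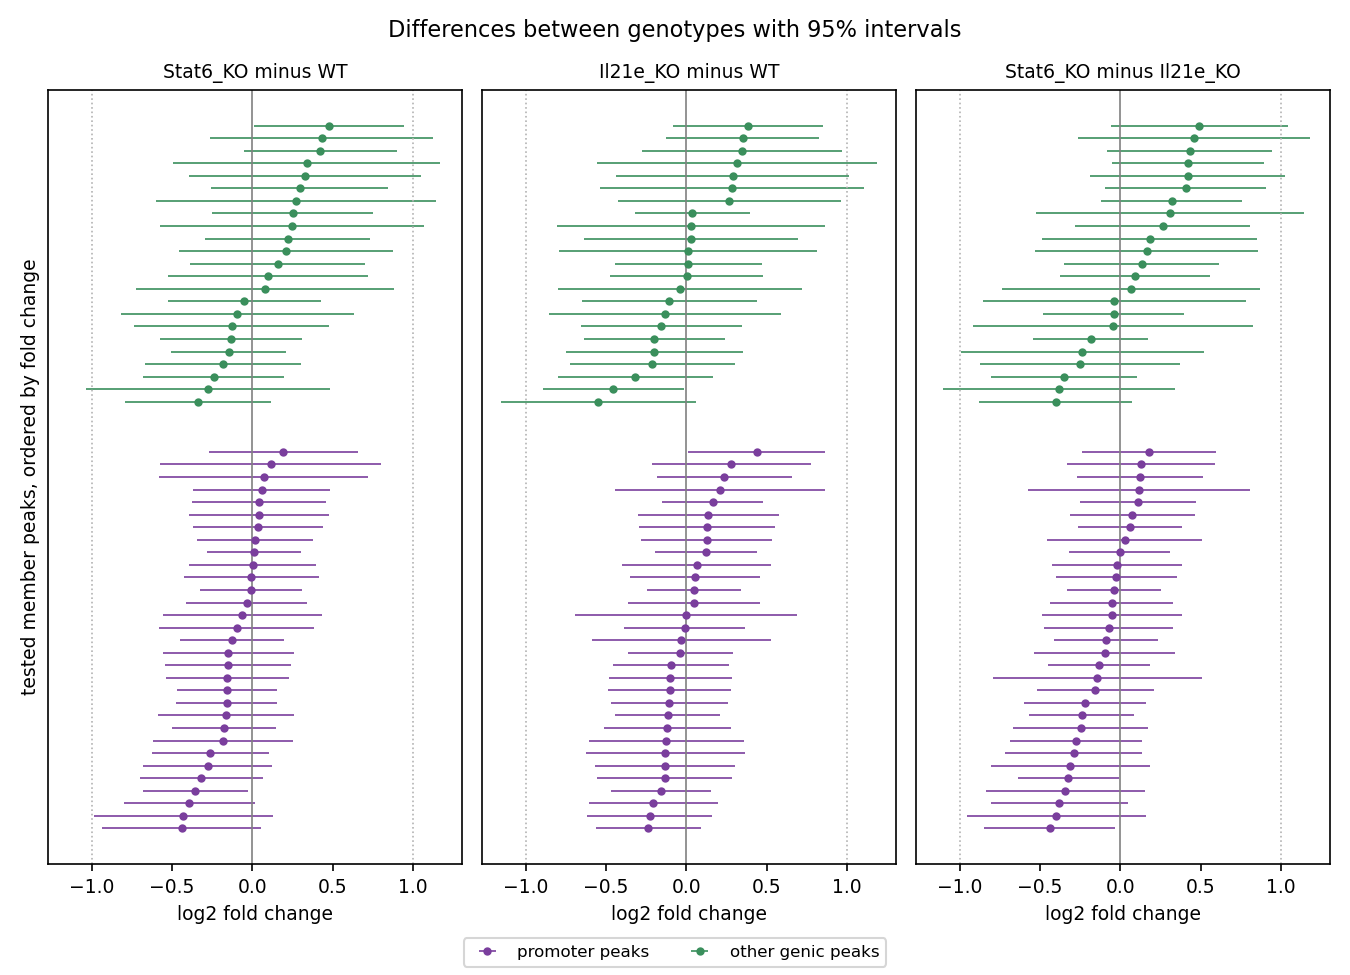
Log2 fold change (x axis) of the 54 tested member peaks with its 95% interval, in 3 comparisons, each ordered by fold change, with promoter peaks in purple and other genic peaks in green. No promoter interval crosses the dotted lines at -1 and 1, whereas some intervals of other peaks do.

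Stat6_KO against WT asked whether loss of Stat6 changed openness at interferon-stimulated genes. Member promoters had a median log2 fold change of -0.13, beside -0.08 for all tested promoters. Of the 31, 21 had a negative value (67.7%), beside 67.1% of all tested promoters. Other member peaks had a median of 0.16, beside 0.03 for all tested other genic peaks, and 14 of 23 were positive (60.9%), beside 54.9%. Both medians moved when 1 WT library was left out: the promoter median was -0.03 without WT 2, and the other-peak median was 0.06 without WT 2 and 0.02 without WT 3. In 6 of 31 member promoters all Stat6_KO libraries were below all WT libraries (19.4%), beside 10.7% of all tested promoters. These were the promoters of Mx1, Oasl2, Bst2 and Ifi35 and both tested promoters of Adar. No member promoter had the reverse pattern, beside 3.26%. Among other peaks, 2 of 23 were higher (8.7%, beside 7.73%) and 1 was lower (4.35%, beside 5.75%) without overlap. WT libraries had 32.3% to 36.4% of their reads in promoter peaks and Stat6_KO libraries 31.6% to 33.3%. The part of this in the member values was not tested.

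Il21e_KO was compared with the same WT libraries, so the 2 comparisons are not independent. Member promoters had a median of -0.03 in Il21e_KO against WT, beside 0.03 for all tested promoters, and other peaks 0.01, beside -0.06. Groups did not overlap for 2 of 54 peaks upward (3.7%, beside 2.84% of all tested peaks) and 2 downward (3.7%, beside 4.44%). In 19 of the 29 member promoters, Il21e_KO 1 was the highest of the Il21e_KO libraries. Summed over member promoter peaks that library held 1088 CPM against 920 and 908 in Il21e_KO 2 and 3, and over other member peaks 304 against 377 and 393. This was not particular to the members. All promoter peaks of the table held 42.7% of the reads of Il21e_KO 1, against 32.7% and 33.0% in Il21e_KO 2 and 3. All other genic peaks held 32.0%, against 37.7% and 37.5%. Without Il21e_KO 1 the medians in Il21e_KO against WT were -0.10 for promoters and 0.05 for other peaks. In Stat6_KO against Il21e_KO the medians were -0.09 for promoters, beside -0.12, and 0.13 for other peaks, beside 0.10. Without Il21e_KO 1 they were -0.05 and 0.01. Here 1 of 54 peaks was higher without overlap (1.85%, beside 6.45%) and 3 were lower (5.56%, beside 4.59%).

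Detectors of cytosolic nucleic acid are Ddx58 (Rig-I), Ifih1 (Mda5), Dhx58 (Lgp2) and Zbp1, which senses Z-form nucleic acid. Their 4 promoters had log2 fold changes of -0.16 to 0.01 in Stat6_KO against WT and -0.23 to 0.05 in Il21e_KO against WT. The Ddx58 promoter held 52.6, 67.7 and 50.3 CPM in WT, 50.01, 53.0 and 48.3 in Stat6_KO, and 51.5, 46 and 54.4 in Il21e_KO. Their 5 tested peaks inside genes, from 3 genes, all had positive values in Stat6_KO against WT, beside 54.9% of all tested other genic peaks. The values ran from 0.21 to 0.48 with a median of 0.34, and no peak passed. The largest lay in intron 3 of Ifih1 (chr2:62468443-62469120, mm9). It held 7.95, 9.34 and 10.3 CPM in WT, 12.5, 14.1 and 12.8 in Stat6_KO and 10.5, 15.1 and 11.7 in Il21e_KO. Both knockouts lay above all WT libraries, with log2 fold changes of 0.48 ± 0.22 (SE; unadjusted p = 0.0459 with limma-trend, adjusted p = 1) and 0.39 ± 0.22 (unadjusted p = 0.0992 with limma-trend), the latter 0.25 without Il21e_KO 2. The peak in intron 10 of Ddx58 (chr4:40164967-40165840, mm9) held 13.5, 13.2 and 9.03 CPM in WT, 14.2, 17.1 and 17.1 in Stat6_KO, and 10.5, 10.7 and 14.4 in Il21e_KO. Stat6_KO lay above WT there by 0.42 ± 0.23, or 0.25 without WT 3, and did not pass.

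Among the effectors on viral RNA and protein synthesis, 12 promoter peaks of 10 genes were tested. Their median was -0.13 in Stat6_KO against WT, beside -0.08 for all tested promoters. It was -0.10 in Il21e_KO against WT, beside 0.03, and -0.18 in Stat6_KO against Il21e_KO, beside -0.12. The main Adar promoter peak (chr3:89518217-89519590, mm9) held 45.3, 53.7 and 42.6 CPM in WT, 34.1, 39.4 and 36.1 in Stat6_KO and 41.0, 41.0 and 48.3 in Il21e_KO. Every Stat6_KO library was below every other library, by -0.36 ± 0.15 against WT (unadjusted p = 0.0343 with limma-trend, adjusted p = 1). The peak at a second Adar start (chr3:89534229-89535357) held 23.3, 18.7 and 19.3 CPM in WT, 13.6, 14.7 and 15.9 in Stat6_KO, and 27.6, 13.2 and 17.2 in Il21e_KO. There Stat6_KO also lay below WT, by -0.44 ± 0.23, but overlapped Il21e_KO. Neither Adar peak passed. The longer Adar protein is the form known to be made under interferon.

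Oasl2, an OAS-like protein, had the promoter with 1 of the 2 lowest p-values between the knockouts. It held 38.5, 42.8 and 38.0 CPM in WT, 35.8, 34.1 and 36.7 in Stat6_KO and 48.6, 44.7 and 41.1 in Il21e_KO. Stat6_KO lay below both other genotypes without overlap, by -0.32 ± 0.15 against Il21e_KO (unadjusted p = 0.0445 with limma-trend, adjusted p = 0.780) and -0.16 ± 0.15 against WT. Oas1a held 4.90, 7.79 and 11.6 CPM in WT, 10.2, 7.07 and 7.34 in Stat6_KO and 6.67, 9.45 and 11.7 in Il21e_KO, and the genotypes overlapped. In Oas2, which makes the same messenger as Oas1a, the promoter had values of -0.15 ± 0.18 and -0.10 ± 0.18 in the knockouts against WT. A weak peak in its intron 4 had 0.43 ± 0.33 in Stat6_KO against WT, and 0.25 without WT 3.

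The Ifit promoters overlapped between genotypes. Ifit2 held 20.8, 29.6 and 19.3 CPM in WT, 19.9, 23.6 and 25.1 in Stat6_KO and 29.5, 29.0 and 23.3 in Il21e_KO. Ifit3 held 18.8, 19.4 and 16.5 CPM in Stat6_KO and 19.1, 13.2 and 16.1 in Il21e_KO, about its WT values. Rsad2 (viperin), which makes a chain-terminating nucleotide, held 22.8 ± 2.76 CPM in WT, 20.3 ± 2.31 in Stat6_KO and 25.3 ± 6.13 in Il21e_KO. Isg20 held 29.0 ± 2.11, 23.3 ± 3.86 and 27.1 ± 2.97 CPM, with -0.32 ± 0.18 in Stat6_KO against WT and -0.20 without Stat6_KO 3. This Isg20 peak lies 77 bases from the listed start, over which the table has no peak. A second tested Isg20 promoter peak (chr7:86057053-86057896, mm9) held 22.2 ± 4.94 CPM in WT, 20.6 ± 4.11 in Stat6_KO and 20.3 ± 5.05 in Il21e_KO. Its value in Stat6_KO against WT was -0.10 ± 0.23.

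Eif2ak2 (PKR) halts translation on sensing double-stranded RNA. Its promoter held 12.2, 15.6 and 12.9 CPM in WT, 13.6, 13 and 15.3 in Stat6_KO and 18.1, 13.9 and 13.3 in Il21e_KO. A peak in its 5′ untranslated exon held 9.79, 7.01 and 10.3 CPM in WT, 10.2, 12.4 and 11 in Stat6_KO, and 6.67, 6.30 and 10.5 in Il21e_KO. It had the largest positive value between the knockouts, 0.49 ± 0.26, and the groups overlapped. Samhd1, which depletes the nucleotides for DNA synthesis, had 5 tested peaks besides its promoter, the most of any member. Its promoter held 43.8 ± 7.99, 44.2 ± 6.65 and 40.6 ± 3.06 CPM in WT, Stat6_KO and Il21e_KO. The intron 1 peak of Samhd1 held 12.8, 10.9 and 16.1 CPM in WT, 10.2, 12.4 and 13.5 in Stat6_KO and 4.76, 12 and 11.1 in Il21e_KO. Its value in Il21e_KO against WT was -0.55 ± 0.29, the most negative of the members, and -0.17 without Il21e_KO 1. The coding exon 5 peak of Samhd1 had the opposite sign, at 18.1, 15.1 and 16.1 CPM in Il21e_KO, above the 14.1, 14.8 and 9.67 in WT, and its value of 0.35 ± 0.23 did not pass and was 0.17 without WT 3.

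The 5 GTPase promoters had values from -0.43 to 0.03 in Stat6_KO against WT and -0.24 to 0.06 in Il21e_KO against WT. Mx1, an antiviral GTPase gene whose C57BL/6 allele is known to be defective, held 22.0, 26.5 and 23.2 CPM in WT, 21.6, 16.5 and 20.8 in Stat6_KO and 18.1, 23.3 and 20.5 in Il21e_KO. Stat6_KO lay just below WT without overlap, at -0.28 ± 0.19, and -0.16 without Stat6_KO 2. The Gbp3 promoter (chr3:142222554-142224187, mm9) held 42.8, 45.2 and 45.1 CPM in WT, 34.7, 38.9 and 44.7 in Stat6_KO, and 41.0, 34.7 and 37.2 in Il21e_KO. Its value in Il21e_KO against WT was -0.24 ± 0.15, without overlap, and did not pass. Gbp2 held 57.8 ± 4.49, 53.1 ± 7.67 and 56.6 ± 8.82 CPM in WT, Stat6_KO and Il21e_KO. Irgm1, which guards against vacuolar pathogens, held 40.3 ± 10.7, 40.7 ± 5.61 and 41.4 ± 6.66. Igtp had the most negative promoter value of this group in Stat6_KO against WT, -0.43 ± 0.26, on 6.25, 10.6 and 7.34 CPM that overlapped WT, and -0.23 without WT 2. Its exon 2 peak had 0.43 ± 0.24 in Stat6_KO against Il21e_KO, at 18.8, 14.1 and 14.7 against 7.62, 13.9 and 13.9 CPM, and 0.17 without Il21e_KO 1.

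Protein modifiers are Isg15, Usp18, which removes Isg15 and dampens the interferon receptor, the ubiquitin ligase Trim25, and the ADP-ribosyltransferases Parp9 and Parp14. Trim25, which ubiquitinates Rig-I, had the lowest upward p in Il21e_KO against WT. Its promoter (chr11:88860299-88861652, mm9) held 35.5, 27.2 and 24.5 CPM in WT, 29.5, 27.1 and 33.6 in Stat6_KO and 52.4, 37.2 and 31.1 in Il21e_KO. The value was 0.44 ± 0.20 (unadjusted p = 0.0452 with limma-trend, adjusted p = 0.9998), the groups overlapped, and without Il21e_KO 1 it was 0.23. Isg15 held 6.12, 7.79 and 5.16 CPM in WT, 6.25, 7.07 and 7.34 in Stat6_KO and 4.76, 10.1 and 4.99 in Il21e_KO, near the level of a few reads. Usp18 held 31.3 ± 8.70, 26.9 ± 1.84 and 28.2 ± 5.83 CPM, and Parp9 45.5 ± 7.25, 40.7 ± 3.04 and 51.0 ± 16.4, in WT, Stat6_KO and Il21e_KO.

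Parp14 is known as a partner of Stat6 in interleukin-4 responses. Its promoter held 45.3, 42.8 and 45.1 CPM in WT, 40.3, 42.4 and 50.2 in Stat6_KO and 55.3, 44.1 and 46.6 in Il21e_KO, which overlapped. The peak in its intron 1 (chr16:35869099-35869737, mm9) held 19.0, 16.4 and 16.1 CPM in WT, 14.2, 15.9 and 16.5 in Stat6_KO and 9.53, 13.2 and 14.4 in Il21e_KO. Il21e_KO lay below WT without overlap, by -0.45 ± 0.21 (unadjusted p = 0.0443 with limma-trend, adjusted p = 0.9998), and by -0.29 without Il21e_KO 1.

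The surface, secreted and remaining members had promoter values from -0.39 to 0.19 in Stat6_KO against WT. Bst2 (tetherin) had the lowest p between the knockouts. Its promoter (chr8:74060884-74061858, mm9) held 28.8, 26.5 and 30.3 CPM in WT, 17.6, 24.1 and 23.2 in Stat6_KO and 36.2, 29.6 and 23.9 in Il21e_KO. Stat6_KO lay below all WT libraries, by -0.39 ± 0.19 (unadjusted p = 0.0600 with limma-trend), or -0.26 without Stat6_KO 1. Against Il21e_KO the value was -0.44 ± 0.19 (unadjusted p = 0.0368 with limma-trend, adjusted p = 0.780), it was -0.30 without Il21e_KO 1, and the groups overlapped. Bst2 also marks plasmacytoid dendritic cells. Of the 2 other markers listed for these cells, Siglech had no peak. The Tcf4 promoter peak nearest the start held 24.6 ± 0.66 CPM in WT, 28.5 ± 4.79 in Stat6_KO and 25.1 ± 9.39 in Il21e_KO. Summed over the 3 promoter peaks of Bst2 and Tcf4, the signal was 63.2 to 66.1 CPM in WT and 57.4 to 63.0 in Stat6_KO. In Il21e_KO it was 68.8 to 71.8 CPM, and each sum includes Bst2 itself. Neither the Bst2 nor the Tcf4 promoter passed, and the part of such cells in the Bst2 value was not tested.

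Ifi35, a protein that binds the Stat partner Nmi, held 34.3, 34.3 and 31.6 CPM in WT, 25, 29.4 and 28.8 in Stat6_KO and 35.3, 32.8 and 25.5 in Il21e_KO. Stat6_KO lay below WT without overlap, at -0.26 ± 0.17. Lgals3bp, a secreted galectin-binding protein, held 22.9 ± 0.73, 22.7 ± 7.40 and 28.6 ± 7.51 CPM in WT, Stat6_KO and Il21e_KO. The promoters of Xaf1, which antagonises the apoptosis inhibitor Xiap, and of the chaperone gene Rtp4 overlapped between all genotypes. Xaf1 had the highest promoter value of all members in Stat6_KO against WT, 0.19 ± 0.22.

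**Figure D5:**
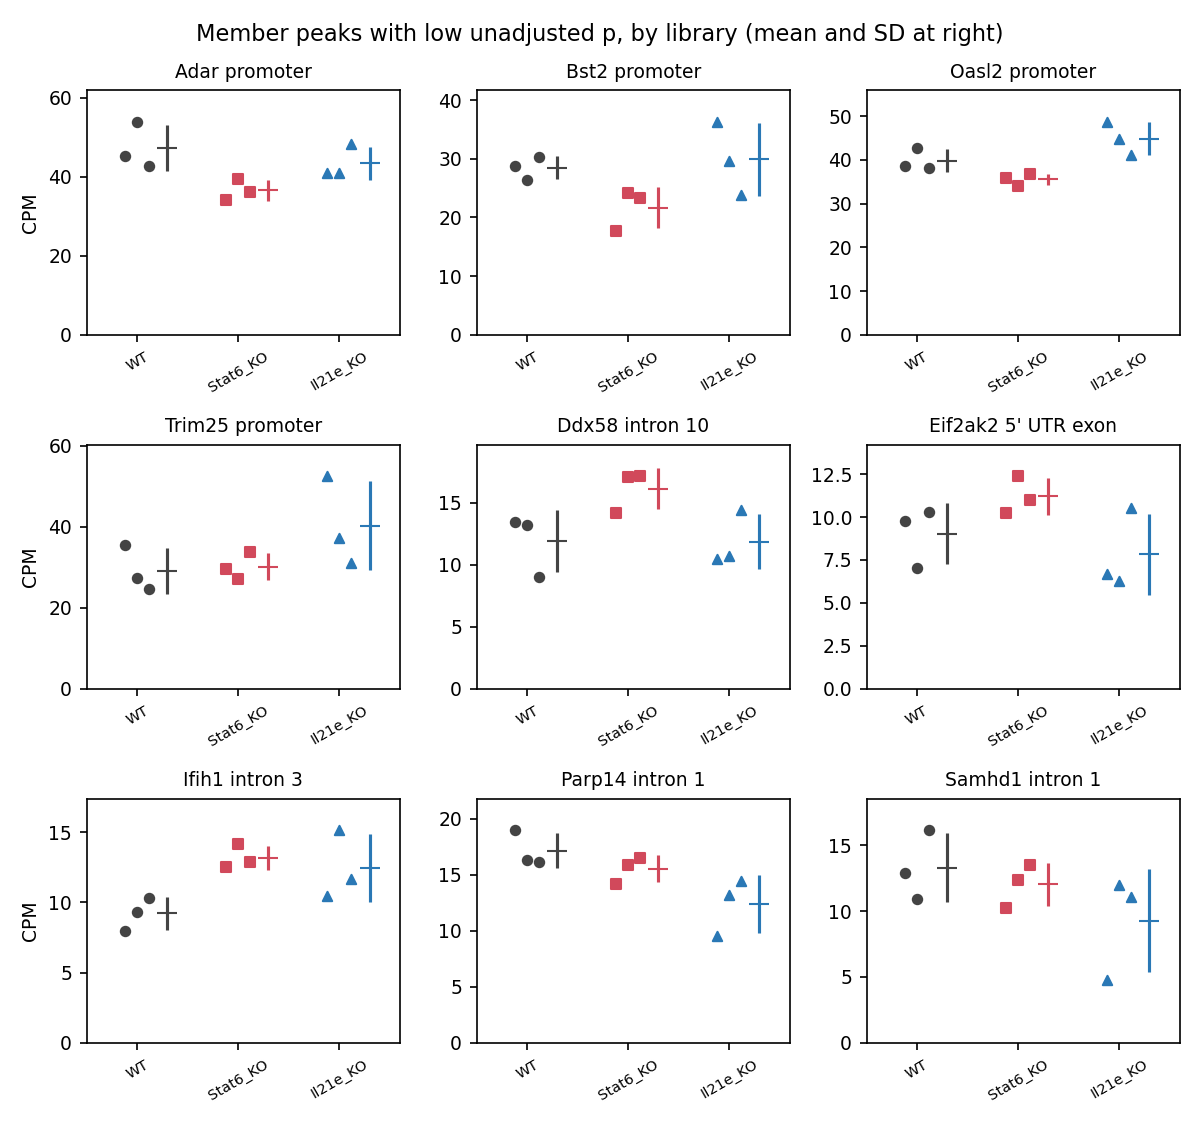
CPM (y axis) by library for the 9 member peaks that hold the 2 smallest unadjusted p-values in either direction of a comparison, with mean and SD at the right of each genotype. None passed after adjustment, and the Il21e_KO points of Trim25 and Samhd1 spread widely around 1 library.

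The 61 member peaks below the filter, 11 promoter and 50 other peaks, had at most 13 reads in any library and a WT mean of at most 5.91 CPM. In a limma-trend fit without the filter, 0 of all 115 member peaks passed in any comparison, with a lowest adjusted p of 0.627. At an unadjusted p under 0.05 there were 3, 4 and 6. The share of all peaks at that level was not taken for this fit, so these counts have no background beside them.

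Receptors, kinases, factors, sensors, inhibitors and further induced genes of the interferon pathway outside the set had no call either. Of 65 genes listed, 58 had a tested peak, 152 peaks in all, and 0 passed in any comparison (limma-trend). At an unadjusted p under 0.05, 3 were higher and 5 lower in Stat6_KO against WT, 0 and 4 in Il21e_KO against WT, and 7 and 7 in Stat6_KO against Il21e_KO. These were 5.26%, 2.63% and 9.21% of the 152 peaks, beside 3.29%, 3.52% and 5.68% of all tested peaks. The smallest p-values in Stat6_KO against WT lay at the promoter of Gbp5, a guanylate-binding GTPase, 0.40 ± 0.16, and at a 5′ untranslated exon of the receptor kinase gene Jak1, -0.43 ± 0.16. In Il21e_KO against WT they lay at a 5′ untranslated exon of the GTPase gene Ifi47, 0.41 ± 0.22, and at the promoter of Sp100, a nuclear body protein, -0.55 ± 0.19. Between the knockouts the smallest p among lower peaks lay at the promoter of Slfn5, a Schlafen family gene, -0.57 ± 0.22.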

How the data were processed

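ATAC-seq was run on naive CD4+ T cells, with 3 libraries for each of WT, Stat6_KO and Il21e_KO. The authors deposited 1 table of peaks with CPM values per library and gene assignments on mm9; the sum over peaks is the same in each library. HOMER, MACS2 2.0 and Bowtie 1.3.0 appear in the submitters' processing notes, where no role is stated. How peaks were pooled and duplicates treated is not given in the sources used here. Dividing by the smallest step gave whole reads (within 0.01 read) for 100% of values, so reads were recovered.

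Peaks were kept by edgeR's filter on recovered reads (minimum count 10, total 15). Log2(CPM + 1) values of all 9 libraries were fitted with limma-trend (limma 3.58.1, R 4.3.3), 2-sided, with Benjamini-Hochberg adjustment over all tested peaks at 0.05, and an F test over genotypes. The procedure was also run on simulated data, with the same spread setting for every peak and library. No simulated library stood apart, so that run does not cover a library such as Il21e_KO 1. Alternatives were pseudocounts 0.25 and 5, no filter, TMM scaling, fits of 2 groups alone, a replicate block, each library left out, added intergenic peaks, and edgeR 4.0.16 and DESeq2 1.42.0 on the recovered reads. Fitting without both Il21e_KO 1 and WT 1 was added after seeing the data. Intervals cover the spread between libraries, and the reads per peak carry no molecular identifiers.

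Named peaks were the tested promoter peak nearest each start, in each comparison the 3 smallest p in each direction, and the 3 most and least open promoters; of other pathway genes, the smallest p in each direction, 1 of which is not reported here. The members and lists were chosen with earlier results of these data known.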

Additional observations from a re-analysis of the deposited data

How the results depend on the processing

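Member peaks called numbered 0 in every comparison under all alternatives run, including edgeR, DESeq2 and each library left out. Over 38 named peaks and 3 comparisons, 66 of 114 fold changes kept their sign under all 18 alternatives. So did all 25 with an absolute log2 value of at least 0.3. Of 2052 recomputed values, 84 moved by more than the spread between replicates. Several alternatives cannot change the fold change of a peak, so part of this stability was fixed in advance. These are no filter, 2 groups alone, the replicate block and leaving out a library of the genotype not compared.

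Counts over all tested peaks moved more. Stat6_KO against WT gave 5, with 38 when the 2 groups were fitted alone, 67 without Il21e_KO 1 and WT 1 and 3 to 61 with 1 library left out. Il21e_KO against WT gave 0, with 1 without the filter, 2 without these libraries and 0 to 2 with 1 library left out. Stat6_KO against Il21e_KO gave 5, with 8 at pseudocount 5, 16 without the filter, 12 with edgeR, 24 without these libraries and 4 to 17 with 1 left out. The F test gave 5, with 17 without the filter, 11 with edgeR, 13 with DESeq2, 58 without these libraries and 4 to 48 with 1 left out.

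The median of member promoters in Stat6_KO against WT (-0.13) ran from -0.1372 to -0.0349 with 1 library left out. That of other peaks (0.16) was 0.1128 without Il21e_KO 1 and WT 1 and 0.0182 to 0.1582 with 1 left out. In Il21e_KO against WT both changed sign, -0.0953 to 0.0357 for promoters and -0.0772 to 0.0736 for other peaks. In Stat6_KO against Il21e_KO the promoter median (-0.09) was -0.1219 with TMM, -0.1274 with DESeq2, -0.0501 without these libraries and -0.1342 to -0.0501 with 1 left out. The other-peak median (0.13) was 0.0055 without these libraries and 0.0055 to 0.2661 with 1 left out. Member promoter openness had a median of 24.6 to 26.7 CPM per kb with 1 left out. The cause was not tested.

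Libraries of the same number did not deviate together (r of -0.19 to 0.25), and with a replicate block Stat6_KO against WT gave 4 calls over all peaks and 0 among members. Depth limits the low peaks: 61 member peaks were below the filter.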
